A study of Oryctolagus cuniculus with 16 samples.

Results

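The genes described here encode collagen chains and the enzymes that modify or crosslink them. They were taken by symbol from the table of counts. COL genes written as a chain, the lysyl oxidases LOX and LOXL1 to LOXL4, the lysyl hydroxylases PLOD1 to PLOD3, the prolyl 4-hydroxylase subunits P4HA1 to P4HA3, the prolyl 3-hydroxylase family P3H1 to P3H4, and the procollagen C-proteinase enhancers were included. The table held 49 such symbols among 13788 named entries. With a count in at least 1 library there were 48, of 11925 entries in all. These were 32 collagen chains and 16 enzymes, and COL22A1 was at 0 throughout.

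All animals were female New Zealand white rabbits. Rabbits 3 and 4 had sham surgery (unligated), and rabbits 5 and 6 had bilateral ligation of the common carotid arteries, which raises flow in the basilar artery. Tissue was taken 24 h after surgery from the straight basilar artery (BA) and the basilar terminus (BT), the bifurcation at its end. At each location the intima, which holds the endothelial cells (ECs), and the media, which holds the vascular smooth muscle cells (VSMCs), were cut out separately by laser microdissection, and strips from several sections of 1 rabbit were pooled. The 16 libraries thus came from 4 rabbits, with 2 rabbits per flow group in each of the 4 tissues. A p-value for flow rests on the spread between these few rabbits. One for layer, location or a difference of responses rests on how differences within these rabbits vary. Both draw on all genes tested to estimate that spread.

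Collagens are trimers of alpha chains. Fibrillar collagens such as types I, III and V bear tensile load in the artery wall, type IV collagen forms the sheet of the basement membrane under the endothelium and around each VSMC, and type VIII collagen is a short-chain collagen made by ECs and VSMCs of remodeling vessels. Before secretion, prolyl and lysyl residues of the chains are hydroxylated in the endoplasmic reticulum, and outside the cell lysyl oxidases form the crosslinks that hold fibrils together.

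Each intimal library held 5211886 to 17686105 counts on named genes, and each medial library 2154863 to 11219236. Expression is given as CPM, a gene's counts on a common library size after TMM scaling (a correction for differences in RNA composition), and 3 counts, the limit that a count of 0 allows for counting error, corresponded to 0.169 to 1.58 CPM. CPM values were not divided by transcript length, so they compare samples and not genes. The labelled layers were checked against marker genes. The 10 endothelial markers summed to 1230 to 5930 CPM in the intima and to 461 to 1670 CPM in the media. The 6 measured smooth muscle markers, mostly ACTA2, summed to 67100 to 118000 CPM in the media and to 10600 to 74400 CPM in the intima. The intimal strips thus also held VSMC RNA (TAGLN and CNN1 were not analysed here). The 12 measured fibroblast and leptomeningeal markers (of 15 listed) summed to 270 to 30800 CPM, the 8 macrophage markers to 52.9 to 759 CPM, the 7 brain parenchymal markers to 0 to 13 CPM and the 2 measured red blood cell markers to 0 to 718 CPM. In bulk tissue, fewer cells of a type and less RNA per cell cannot be told apart. The intima of the BT of sham rabbit 3 stood apart for COL23A1 (95.2 CPM) and PCOLCE2 (210 CPM), which were at most 66.4 and 75.6 CPM in the other libraries. That library also stood apart in its markers. Its macrophage sum (759 CPM) was the highest of all libraries. Among the intimal libraries, its fibroblast and leptomeningeal sum (20600 CPM) was the highest and its endothelial sum (1230 CPM) the lowest. The part of these markers in its member values was not tested.

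Together the members took 0.663 to 1.5% of the named counts in the intima and 1.93 to 2.47% in the media. COL8A1, COL3A1, COL1A2, COL12A1, COL5A2 and PLOD2 held 80.3 to 92.3% of the members' counts in each library. All 16 libraries held counts for 27 members, whereas COL6A5, COL6A6, COL8A2, COL9A2, COL17A1, COL25A1 and COL28A1 stayed under 10 counts in every library. A member was tested where either group had a mean above 1 CPM. By this filter 39 members were tested for flow in at least 1 tissue and 33 in all 4. COL11A2 and COL26A1 joined the 7 lowest members in being tested in none, and the counts of members given for each comparison cover only those that passed.

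**Figure D1:**
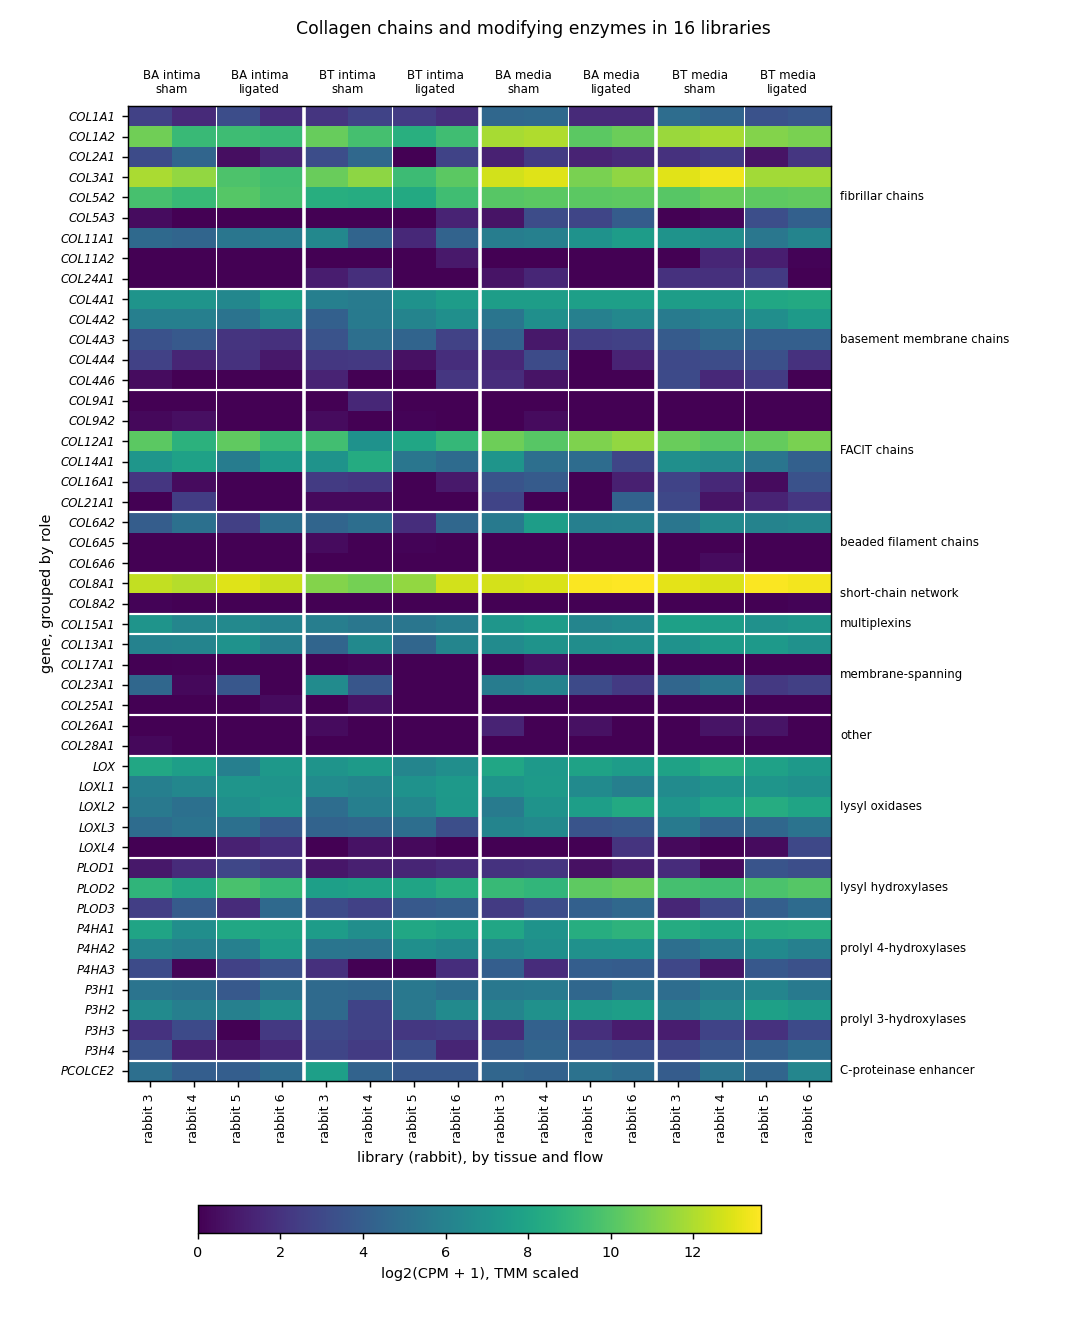
Expression of the 48 genes as log2(CPM + 1), by color, in the 16 libraries (columns, by tissue, flow and rabbit), with genes in rows grouped by role. COL8A1, COL3A1, COL1A2, COL5A2, COL12A1 and PLOD2 form the bright rows, and these rows are darker in the intima than in the media.

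The first question was which members changed expression with increased flow in each tissue. COL3A1 had decreased expression in the media of ligated animals at both locations, and COL1A2 in the BA media. In the BA media COL3A1, the chain of type III collagen, was at 6860 and 8200 CPM in sham rabbits and at 1900 and 2710 CPM in ligated rabbits. COL1A2, the alpha 2 chain of type I collagen, was at 3750 and 4100 CPM in sham rabbits against 1190 and 1560 CPM. For both genes the ligated rabbits lay well under the sham rabbits, without overlap. The log2 fold change was -1.68 (SE 0.26) for COL3A1 and -1.49 (SE 0.26) for COL1A2, with q-values of 0.0362 and 0.0484 (edgeR quasi-likelihood F test, adjusted over all genes tested in the comparison).

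These were 2 of 38 members tested in the BA media, or 5.26%, against 0.807% of all 8800 genes. Both fell. Across all genes 0.375% fell. Both calls were lost when any 1 rabbit was left out. The q-values without rabbits 3, 4, 5 and 6 were 0.174, 0.221, 0.437 and 0.384 for COL3A1, and 0.175, 0.221, 0.474 and 0.48 for COL1A2, with log2 fold changes from -1.98 to -1.29 for the pair. DESeq2 called 508 genes in all, 9 of them members. These were COL3A1, COL1A2, COL1A1, COL23A1 and LOXL3, which were lower in ligated rabbits, and COL8A1, COL11A1, LOXL2 and PLOD2, which were higher.

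COL3A1 fell in the BT media as well. Its values were 8350 and 10600 CPM in sham rabbits and 3420 and 3490 CPM in ligated rabbits (log2 fold change -1.44, SE 0.29, q = 0.0253 in edgeR). It was the only one of 38 members called there, 2.63%, where 2.32% of all 8783 genes were called, so the share of members called was near that of all genes. The call was lost without rabbit 5 (q = 0.169) or rabbit 6 (q = 0.267). Without rabbit 3, 3 members were called (COL3A1, COL5A3 and COL23A1), and without rabbit 4, 6 members (COL3A1, COL4A2, COL5A3, COL14A1, P3H2 and PLOD3). DESeq2 called 594 genes in all, among them 5 members, COL3A1, COL5A3, COL14A1, COL23A1 and P3H2. COL1A2 in the BT media was at 3110 and 3790 CPM in sham rabbits and at 2210 and 1930 CPM in ligated rabbits, and did not pass the test (log2 fold change -0.73, SE 0.29, q = 0.231). Of the 6 measured smooth muscle markers, 4 were lower and 2 higher in the ligated BT media, and a pair of contractile genes passed by edgeR. MYH11 fell from 2130 and 1440 CPM to 445 and 641 CPM (-1.71, SE 0.33, q = 0.0223), and LMOD1 from 340 and 494 CPM to 170 and 123 CPM (-1.51, SE 0.34, q = 0.0438). These markers were split in the BA media, 3 lower and 3 higher, of which 1 and 2 had an unadjusted p below 0.05. The part of these markers in the decrease of COL3A1 was not tested.

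In the intima no member passed the threshold at either location by edgeR as fitted here. That fit called no gene at all, 0% of 8974 genes tested for the BA and 0% of 9273 for the BT. The absence of calls depended on the filter and the method. When all genes with a count were tested, edgeR called 123 intimal genes for the BA and 346 for the BT. Of the latter, 3 were members (COL14A1, COL23A1 and PCOLCE2). DESeq2 called 122 and 613 genes. In the BA intima 3 of 35 members had an unadjusted p below 0.05 (8.57%, against 5.91% of all genes), and DESeq2 called 1 member, COL3A1. In the BT intima there were 7 of 36 (19.4%, against 11.6%), and DESeq2 called 4 members, COL4A1, COL14A1, COL23A1 and PCOLCE2. Leaving out sham rabbit 4 gave 1 edgeR call in the BA intima, COL3A1, and 2 in the BT intima, COL23A1 and PCOLCE2.

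COL3A1 in the intima was lower in each ligated library than in each sham library. In the BA intima it was at 3930 and 2740 CPM in sham rabbits and at 909 and 716 CPM in ligated rabbits (log2 fold change -2.04, SE 0.50, q = 0.486). In the BT intima it was at 1500 and 2630 CPM against 668 and 1180 CPM (log2 fold change -1.17, SE 0.50, q = 0.439).

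**Figure D2:**
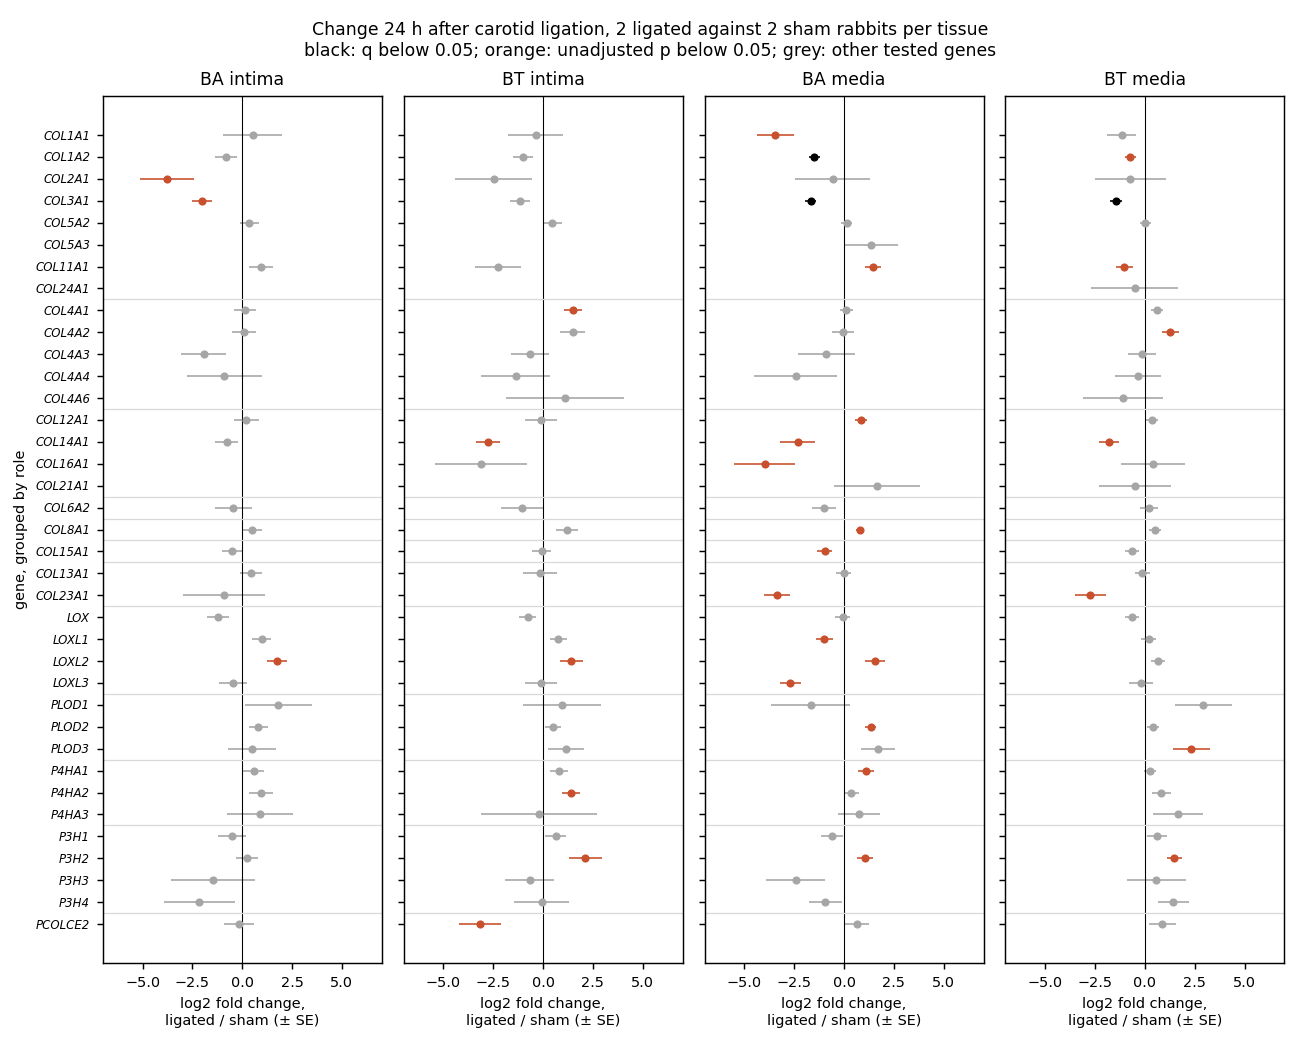
Log2 fold change of ligated against sham rabbits with its SE (horizontal axis) for each tested member (rows, by role) in the 4 tissues, leaving out members with 3 or fewer counts in every library of a group. Black points mark q below 0.05 (COL3A1 and COL1A2 in the BA media, COL3A1 in the BT media) and orange points an unadjusted p below 0.05.

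Over all members there was no common direction. In the BA media 16 of 38 members had an unadjusted p below 0.05 (42.1%, against 13.6% of all genes), 7 higher (6.76% of all genes were) and 9 lower (6.86%), and the median log2 fold change was -0.32 against -0.14 for all genes. In the BT media 9 of 38 did (23.7%, against 16%), 4 higher (7.95% of all genes) and 5 lower (8%), with a median of 0.23 against 0.03. With library size as the only scaling, the medians of all genes were -0.29 and 0.17, and the split in the BT media was 6 higher and 3 lower. The medians of the members in the BA and BT intima were 0.09 and -0.13, against -0.10 and -0.13 for all genes.

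The other fibrillar chains differed among themselves. Of the 8 fibrillar chains tested, 5 had negative and 3 positive log2 fold changes in the BA media, and 6 and 2 in the BT media. COL5A2, the alpha 2 chain of type V collagen, which sets fibril diameter, had log2 fold changes of 0.13 (SE 0.26) and 0.02 (SE 0.29) in the BA and BT media, with q-values of 0.855 and 0.979. Its values in the media lay between 1100 and 1420 CPM in all 8 libraries, and sham and ligated rabbits overlapped at the BT. COL5A2 and COL3A1 lie next to each other in the RefSeq annotation of the rabbit genome. COL1A1, the alpha 1 chain of type I collagen and partner of COL1A2 in its trimer, was at 22.5 and 24.2 CPM in the sham BA media and at 2.11 and 2.1 CPM in the ligated BA media (log2 fold change -3.44, SE 0.91, q = 0.147 in edgeR). The BT media held COL1A1 at 29 and 20.3 CPM against 9.66 and 12 CPM. COL1A1 rested on few counts, 4 to 239 per library, where COL1A2 had 2257 to 39773. The gene model behind the COL1A1 counts was not checked.

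COL11A1, a minor fibrillar chain that copolymerizes with other fibrils, differed between the 2 locations in its response to ligation. In the BA media it was at 54.9 and 59.9 CPM in sham rabbits and at 123 and 185 CPM in ligated rabbits. At the BT it was at 126 and 107 CPM in sham rabbits and at 41.8 and 71.4 CPM in ligated rabbits. Sham and ligated rabbits did not overlap at either location. Neither change passed the threshold by itself in edgeR as fitted here (log2 fold change 1.45, SE 0.40, q = 0.164 in the BA; -1.03, SE 0.42, q = 0.253 in the BT), whereas DESeq2, and edgeR over all genes with a count, called COL11A1 in the BA. The difference of the 2 responses was tested as an interaction with rabbit as a block, and COL11A1 passed it (-2.50 on the log2 scale, SE 0.50, q = 0.0131 in edgeR).

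COL11A1 was the only one of 38 members called in that interaction (2.63%, against 0.491% of 9368 genes). DESeq2 called 2 members among 156 genes, COL11A1 and PLOD2. An unadjusted p below 0.05 was reached by 9 members (23.7%, against 9.06%). The median of all genes in this interaction was 0.12, and 0.40 with library size as the only scaling. The call was lost without ligated rabbit 6 (q = 0.13) and in the fit without the rabbit block (q = 0.411). Without rabbit 3, 2 members were called, COL11A1 and LOXL3. In the intima COL11A1 was at 24.5 and 21.1 CPM in sham rabbits and at 40.4 and 46 CPM in ligated rabbits of the BA, and at 82 and 20.2 CPM against 1.99 and 19.4 CPM at the BT, where the intimal interaction did not pass (log2 difference -3.62, SE 1.28, q = 1).

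The remaining fibrillar chains stayed at or under 23.3 CPM. COL2A1 was at 7.83 and 21.1 CPM in the sham BA intima against 0.426 and 1.71 CPM after ligation, and its q-value was 0.754. COL5A3 had 0 and 1 counts in the sham BT media, or 0 and 0.161 CPM, and was at 8.73 and 17.1 CPM in the ligated rabbits (q = 0.0549 in edgeR). COL24A1 reached 4.05 CPM and COL11A2 1.77 CPM at most.

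COL8A1, the alpha 1 chain of type VIII collagen, was higher in ligated than in sham rabbits in every tissue. It did not pass in any by edgeR, and DESeq2 called it in the BA media. In the BA media it was at 7050 and 7630 CPM in sham rabbits and at 12300 and 12900 CPM in ligated rabbits (log2 fold change 0.81, SE 0.20, q = 0.124). The BT media held it at 8720 and 7650 CPM against 12200 and 11000 CPM (0.51, SE 0.28, q = 0.396). The intimal values were 5370 and 4580 CPM against 8050 and 6050 CPM in the BA, and 2240 and 1800 CPM against 2750 and 6660 CPM at the BT. In the BT intima ligated rabbit 5 lay near the sham rabbits and ligated rabbit 6 well above them. COL8A2, the other type VIII chain, had at most 2 counts in a library.

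COL3A1 and COL8A1 moved apart within each library, a comparison that no scaling of libraries can alter. This ratio was chosen after the values were seen and is given as a description. The CPM of COL3A1 was 0.597 to 1.46 times that of COL8A1 in the 8 sham libraries and 0.113 to 0.318 times in the 8 ligated libraries, without overlap, although each set of 8 came from only 2 rabbits. COL3A1 took 19.2 to 38.4% of the members' counts in sham libraries and 6.47 to 15.1% in ligated libraries, while COL8A1 took 25.2 to 43.4% and 47.6 to 57.4%. Over the 8 medial libraries log2 values of COL3A1 correlated with those of COL1A2 (Pearson's r = 0.96) and inversely with COL8A1 (r = -0.91), and over all 16 libraries COL8A1 correlated with PLOD2 (r = 0.94). The libraries share rabbits, flow groups and layers.

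**Figure D3:**
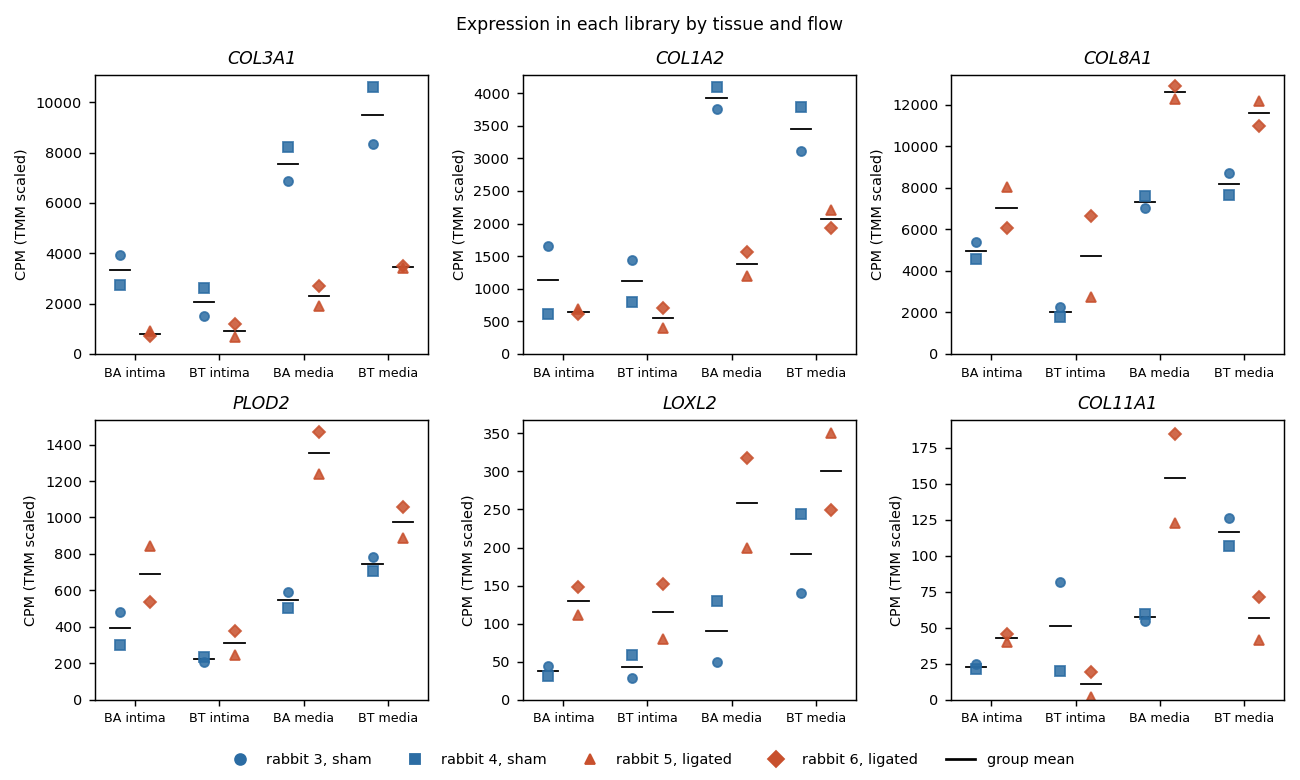
CPM of COL3A1, COL1A2, COL8A1, PLOD2, LOXL2 and COL11A1 (vertical axes, starting at 0) in each library by tissue, with symbols for the rabbits, blue for sham and orange for ligated, and black lines at the mean of the 2 rabbits. COL3A1 is lower and COL8A1, PLOD2 and LOXL2 are higher in the ligated rabbits of each tissue, and COL11A1 is higher after ligation in the BA media and lower in the BT media.

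The summed level of fibroblast markers was lower in ligated rabbits as well, without overlap except in the BA intima. The 12 measured fibroblast and leptomeningeal markers, mostly OGN, APOD and DCN, summed to 22500 to 30800 CPM in the sham BA media and to 5350 to 6100 CPM in the ligated BA media, where OGN, APOD and DCN had decreased expression and ALDH1A2 increased expression by edgeR. At the BT they summed to 12500 to 16200 CPM in the sham media and to 3870 to 5960 CPM in the ligated media, and OGN alone was called, lower (8320 and 11800 CPM against 1450 and 1520 CPM). Of the 12 markers 8 were lower and 4 higher in the BT media, and DCN overlapped between flow groups there (1650 and 2010 CPM against 1230 and 2430 CPM). In the intima the sums were 2970 to 12800 CPM against 757 to 4340 CPM in the BA, and 5030 to 20600 CPM against 270 to 619 CPM at the BT, with DPT, MFAP5, SLC6A13 and SLC22A6 at 0 in both ligated rabbits. Their part in the decrease of COL3A1 and COL1A2 was not tested.

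**Figure D4:**
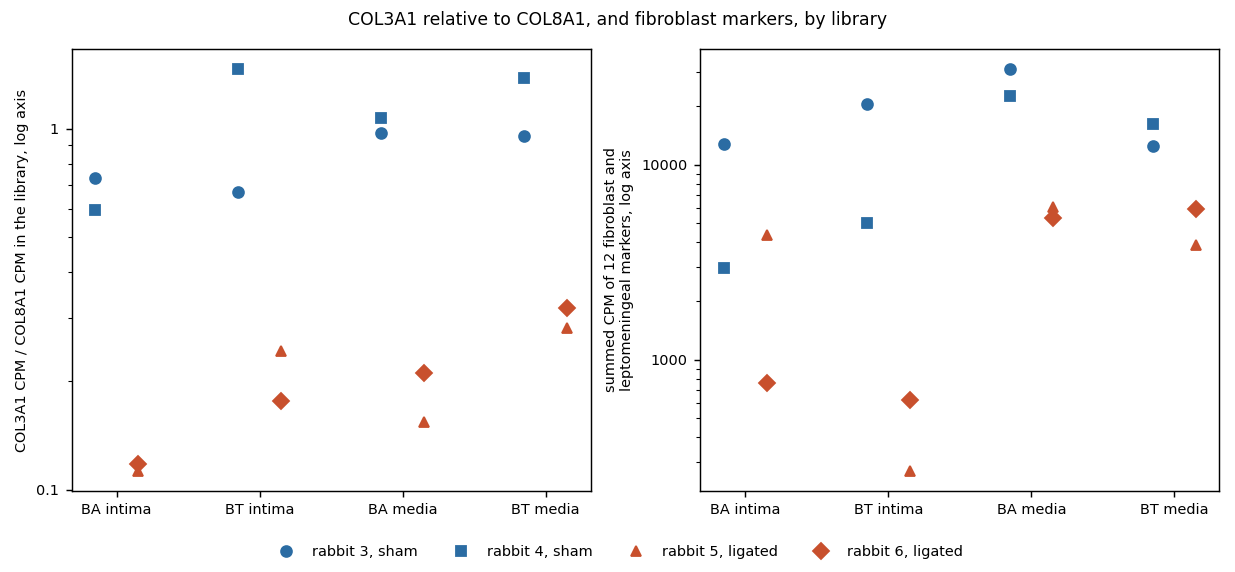
Left, the CPM of COL3A1 divided by that of COL8A1 in each library, and right, the summed CPM of 12 fibroblast and leptomeningeal markers, both on log axes, by tissue, with symbols for the rabbits. The ratio is 0.597 to 1.46 in the sham and 0.113 to 0.318 in the ligated libraries, and the marker sums are separated by flow in each tissue except the BA intima.

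The chains bound to fibril surfaces (FACIT collagens) went different ways. COL14A1, which lies on type I fibrils, was at 136 and 30.4 CPM in the sham BA media and at 27.4 and 6.29 CPM in the ligated BA media (log2 fold change -2.33, SE 0.89, q = 0.31). The BT media had values of 110 and 85.3 CPM against 39.3 and 16.9 CPM (-1.80, SE 0.51, q = 0.0979), and in the BT intima at 127 and 333 CPM against 40.5 and 26.5 CPM (-2.77, SE 0.61, q = 0.267). Ligated rabbits were lower without overlap in these tissues, whereas both groups overlapped in the BA intima. COL12A1, another FACIT chain of load-bearing tissue, was at 1620 and 1110 CPM in the sham BA media and at 2060 and 2760 CPM after ligation (0.85, SE 0.30, q = 0.279), with log2 fold changes of -0.09 to 0.34 in the other tissues. COL16A1 and COL21A1 were at most 13.9 and 18.6 CPM, and COL9A1 was counted only in the BT intima of sham rabbit 4, at 1.9 CPM.

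Of the 5 basement membrane chains, none passed for flow in any tissue by edgeR. Their log2 fold changes in the BA media were positive for 1 and negative for 4. COL4A1 and COL4A2, which pair in the common type IV trimer and lie side by side in the genome, had log2 fold changes of 0.12 (SE 0.32) and -0.06 (SE 0.55) in the BA media. COL4A4 averaged 4.79 CPM in the sham and 0.786 CPM in the ligated BA media (-2.43, SE 2.07, q = 0.627), and COL4A3 was at 9.92 and 13 CPM in the sham BA intima against 3.19 and 2.74 CPM (-1.94, SE 1.15, q = 0.863), without overlap. At the BT, COL4A1 was at 59.2 and 50.7 CPM in the sham intima and at 125 and 189 CPM in the ligated intima (1.51, SE 0.44, q = 0.312), and COL4A2 at 17.3 and 47.3 CPM against 70.9 and 111 CPM (1.49, SE 0.62, q = 0.429). COL4A2 in the BT media was at 50.3 and 64.7 CPM against 106 and 171 CPM (1.28, SE 0.41, q = 0.145). The ligated rabbits lay above the sham rabbits for both genes in both layers of the BT. DESeq2 called COL4A1 in the BT intima, and edgeR without rabbit 4 called COL4A2 in the BT media. COL4A3 and COL4A4, partners in another type IV trimer, reached 30.7 and 9.04 CPM, and COL4A6 reached 7.26 CPM.

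COL15A1, a basement membrane zone collagen, was at 141 and 183 CPM in the sham BA media and at 74.4 and 87.5 CPM after ligation (-0.97, SE 0.37, q = 0.31), and at 213 and 196 CPM against 120 and 137 CPM in the BT media (-0.66, SE 0.34, q = 0.366). COL6A2, of the beaded filaments of type VI collagen, was at 39.8 to 196 CPM in the media and at 2.51 to 31.6 CPM in the intima, with overlapping flow groups in all tissues. COL13A1, a transmembrane collagen of cell adhesions, was at 20.6 to 180 CPM and also overlapped in all tissues.

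COL23A1, a transmembrane collagen, was lower in ligated rabbits without overlap in 3 of the 4 tissues. It was at 51.4 and 66.4 CPM in the sham BA media and at 7.38 and 3.93 CPM in the ligated BA media (log2 fold change -3.38, SE 0.65, q = 0.0588), and at 21.8 and 38.2 CPM against 3.74 and 5.02 CPM in the BT media (-2.75, SE 0.78, q = 0.0991). In the BT intima it was at 95.2 and 11.7 CPM in sham rabbits and had no count in either ligated rabbit. For counting error alone, taking 3 counts per library as the limit, its mean was at least 211-fold lower there. That limit leaves out the spread between rabbits. The edgeR q-value of that difference was 0.247, and rabbit 3 held most of the sham counts. In the BA intima it was at 22.9 and 0.224 CPM against 12.1 and 0 CPM.

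Of the enzymes that hydroxylate lysine and proline inside the cell, none passed the threshold for flow in any tissue by edgeR as fitted here. PLOD2 in the BA media and P3H2 in the BT media were called by DESeq2 and by edgeR over all genes with a count, PLOD2 also in the fit over the 8 libraries of the layer, and P3H2 and PLOD3 in the BT media without rabbit 4. PLOD2, the lysyl hydroxylase that acts on collagen telopeptides, was at 593 and 501 CPM in the sham BA media and at 1240 and 1470 CPM in the ligated BA media (log2 fold change 1.33, SE 0.28, q = 0.0786). The BT media held it at 783 and 706 CPM against 889 and 1060 CPM (0.40, SE 0.29, q = 0.528). In the intima it was at 483 and 303 CPM against 843 and 537 CPM in the BA, and at 209 and 236 CPM against 246 and 377 CPM at the BT. The ligated rabbits were the higher ones for PLOD2 in all 4 tissues. PLOD1 stayed at or under 10.9 CPM and PLOD3 at or under 26.8 CPM, and PLOD3 was at 1.74 and 6.77 CPM in the sham against 16.5 and 26.8 CPM in the ligated BT media (2.32, SE 0.93, q = 0.243).

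P4HA1, the main catalytic subunit of prolyl 4-hydroxylase, which stabilizes the triple helix, was at 267 and 127 CPM in the sham BA media and at 369 and 460 CPM after ligation (1.09, SE 0.41, q = 0.308). P4HA2, another alpha subunit, was at 38.6 and 36.7 CPM in the sham BT intima and at 109 and 89.3 CPM after ligation (1.40, SE 0.44, q = 0.332). P4HA3 reached 15.8 CPM. P3H2, a prolyl 3-hydroxylase that acts on type IV collagen, was at 53.2 and 84.5 CPM in the sham BT media and at 219 and 163 CPM after ligation (1.48, SE 0.39, q = 0.0781), and at 69.5 and 117 CPM against 171 and 202 CPM in the BA media (1.03, SE 0.40, q = 0.31). In the BT intima P3H2 was at 25.5 and 5.71 CPM against 44.8 and 92.2 CPM (2.12, SE 0.82, q = 0.405), and in the BA intima the flow groups overlapped. P3H1 was at 13.2 to 72.3 CPM, and P3H3 and P3H4 reached 18 and 27.8 CPM.

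Among the lysyl oxidases, which crosslink collagen and elastin outside the cell, LOXL2 was the one that was higher in ligated rabbits in all tissues. It was at 49.9 and 130 CPM in the sham and at 200 and 318 CPM in the ligated BA media (log2 fold change 1.56, SE 0.50, q = 0.225). In the BA intima it was at 45 and 31.4 CPM against 111 and 148 CPM (1.75, SE 0.52, q = 0.724), and in the BT intima at 28.1 and 58.9 CPM against 79.8 and 152 CPM (1.41, SE 0.57, q = 0.421). In the BT media the nearest values were 244 CPM in a sham and 249 CPM in a ligated rabbit, and they changed order with RLE scaling. LOXL3 was at 71.4 and 84.1 CPM in the sham BA media and at 10.5 and 12.8 CPM after ligation (-2.70, SE 0.52, q = 0.0593), and overlapped in the other tissues.

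LOX itself did not pass in any tissue. It was at 273 and 169 CPM in the sham BA media and at 230 and 188 CPM after ligation (-0.06, SE 0.37, q = 0.964). In the other tissues its ligated values were the lower ones without overlap, such as 58 and 157 CPM against 296 and 200 CPM in the BA intima (-1.22, SE 0.56, q = 0.847). LOXL1 was at 131 and 171 CPM in the sham and at 91.8 and 59.5 CPM in the ligated BA media (-0.98, SE 0.41, q = 0.344), and in the BA intima at 58.9 and 79.4 CPM against 140 and 132 CPM (0.98, SE 0.48, q = 0.854). LOXL4 reached 6.66 CPM. PCOLCE2, which enhances removal of the procollagen C-propeptide, was at 210 and 19.2 CPM in the sham BT intima and at 12.4 and 12.8 CPM after ligation (-3.18, SE 1.06, q = 0.348), where the difference rested on rabbit 3.

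Counted over the 33 members tested in all 4 tissues, 1 was lower in ligated rabbits without overlap in every tissue (COL3A1, 3.03%) and 3 were higher (COL8A1, LOXL2 and PLOD2, 9.09%). Among all 7930 such genes these shares were 3.11% and 3.68%. With library size alone P4HA1 joined the higher ones, and with RLE scaling LOXL2 left them. The 4 tissues came from the same 4 rabbits.

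The response to ligation was also compared between locations and layers. In the intima no member differed in response between the BT and the BA (0 of 38 by edgeR, and 0% of 9641 genes), although 5 had an unadjusted p below 0.05 (13.2%, against 3.47%) and DESeq2 called 1, COL23A1. Without rabbit 6, edgeR called 2, COL11A1 and COL23A1. Between intima and media no response differed in the BA (0 of 38, 0% of 9514 genes, 2 at an unadjusted p below 0.05 against 2.44%, 0 by DESeq2) or at the BT (0 of 38, 0% of 9624 genes, 1 against 4.8%, and 1 by DESeq2, COL23A1).

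The next comparison set the intima against the media of the same rabbits. Many collagen genes had lower expression in the intima. At the BT 8 of 38 members were called by edgeR with rabbit as a block, all lower in the intima (21.1%, against 0.756% of all genes lower and 1.95% in either direction). They were COL3A1, COL1A2 and COL5A2 of the fibrillar chains, COL12A1, COL8A1 and COL15A1, and the enzymes PLOD2 and LOXL2. An unadjusted p below 0.05 was reached by 18 members (47.4%, against 14.4%).

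For COL3A1 the BT intima was at 1500, 2630, 668 and 1180 CPM in rabbits 3 to 6 and the media at 8350, 10600, 3420 and 3490 CPM (log2 fold change -2.11, SE 0.26, q = 0.0201). PLOD2 was at 209, 236, 246 and 377 CPM in the intima and at 783, 706, 889 and 1060 CPM in the media (-1.71, SE 0.21, q = 0.0201). For these genes the intima and the media did not overlap across rabbits, and each rabbit showed the same direction.

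COL1A2 was at 1440, 800, 393 and 709 CPM in the intima against 3110, 3790, 2210 and 1930 CPM in the media (-1.82, SE 0.30, q = 0.0327). COL5A2 was at 383, 345, 308 and 708 CPM against 1120, 1420, 1220 and 1350 CPM (-1.63, SE 0.26, q = 0.0326). COL8A1 was at 2240, 1800, 2750 and 6660 CPM against 8720, 7650, 12200 and 11000 CPM (-1.74, SE 0.32, q = 0.0403). Rabbit 6 had the highest intimal value of both COL5A2 and COL8A1, and thus the smallest difference between its layers.

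COL12A1 was at 731, 125, 273 and 539 CPM in the intima against 1460, 1160, 1400 and 1910 CPM in the media (-2.10, SE 0.37, q = 0.0387). COL15A1 was at 57, 41.6, 39.5 and 54.3 CPM against 213, 196, 120 and 137 CPM (-1.77, SE 0.27, q = 0.0265). LOXL2 was at 28.1, 58.9, 79.8 and 152 CPM against 140, 244, 351 and 249 CPM (-1.81, SE 0.32, q = 0.0387). Of the 8 genes, LOXL2 alone overlapped between layers across rabbits, since the media of rabbit 3 (140 CPM) lay under the intima of rabbit 6 (152 CPM).

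**Figure D5:**
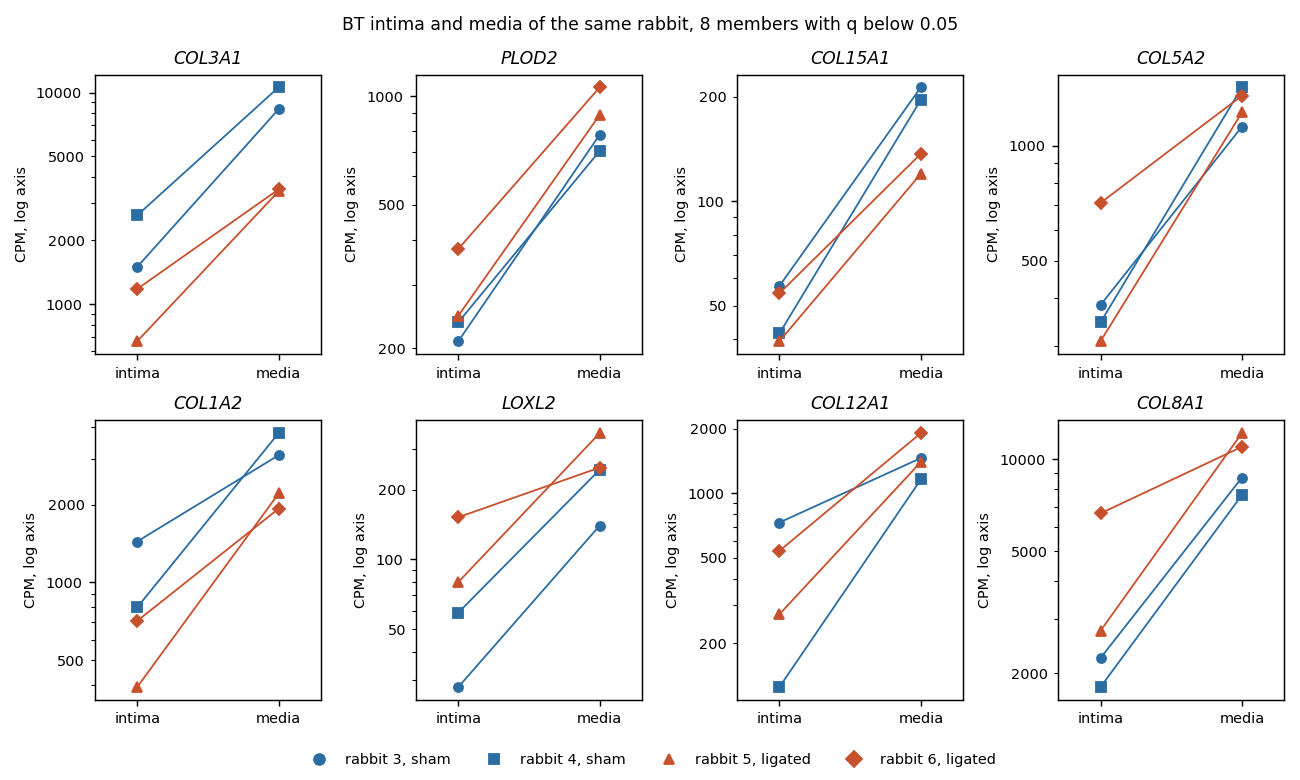
CPM (log axes) of the 8 members called at the BT in the intima and the media, with a line joining the layers of each rabbit, blue for sham and orange for ligated. Every line rises from intima to media.

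None of the 8 calls held without rabbit 4, 5 or 6, although both layers of each remaining rabbit were kept. The edgeR q-values of COL3A1 were then 0.141, 0.0614 and 0.0776. Without rabbit 3, COL8A1 (q = 0.0615) and LOXL2 (q = 0.0509) were lost and COL11A1 was called, giving 7. Without the rabbit block none was called, with q-values of 0.123 for PLOD2 and 0.19 for COL3A1. DESeq2 called 18 members among 1020 genes. With library size as the only scaling the median log2 fold change of all genes was 0.31 in place of 0.07, and COL12A1 was lost (q = 0.0626).

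In the BA the same comparison called no member (0 of 35 by edgeR, 0.466% of 9016 genes), with 14 at an unadjusted p below 0.05 (40%, against 12.3%). DESeq2 called 13 members among 676 genes. COL3A1 there had a log2 fold change of -1.39 (SE 0.25, q = 0.0735), COL11A1 of -1.62 (SE 0.29, q = 0.0719), COL6A2 of -2.23 (SE 0.45, q = 0.0935) and COL1A2 of -1.55 (SE 0.32, q = 0.0984). All 4 rabbits had less of each of these in the intima. Of the members tested, 14 of 35 in the BA (40%, against 10.5% of all genes) and 21 of 38 at the BT (55.3%, against 12%) were lower in the intima of every rabbit. With library size alone these were 12 and 20, and with RLE scaling 14 and 21. The median log2 fold change of the members was -0.66 in the BA and -1.67 at the BT, against 0 and 0.07 for all genes (0.24 in the BA with library size alone). Whether the layers differed more at the BT than in the BA was not tested.

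COL14A1 was the only member with higher values in the intima in 4 of 4 rabbits at both locations. Of all genes, 11.9% were higher in every rabbit in the BA and 13.9% at the BT. By log2 fold change, 5 of 35 members in the BA and 5 of 38 at the BT were higher in the intima. In the BA it was at 141, 221, 52.3 and 160 CPM in the intima and at 136, 30.4, 27.4 and 6.29 CPM in the media of rabbits 3 to 6 (log2 fold change 2.01, SE 0.72, q = 0.305). Rabbit 3 had almost equal values in the layers, and the 3 other rabbits had higher intimal values. At the BT the layers were close in rabbit 3 (127 CPM in the intima, 110 CPM in the media) and rabbit 5 (40.5 and 39.3 CPM). Rabbits 4 and 6 differed more there (333 and 85.3 CPM, 26.5 and 16.9 CPM).

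Smooth muscle markers moved with these differences, and fibroblast markers did so less evenly at the BT. At the BT 6 of 6 measured smooth muscle markers had an unadjusted p below 0.05 and were lower in the intima, and MYH11, DES and LMOD1 were called. The summed smooth muscle markers, mostly ACTA2, were 10600 to 46600 CPM in the BT intima and 67100 to 101000 CPM in the BT media. The fibroblast markers summed to 270 to 20600 CPM against 3870 to 16200 CPM, and rabbit 3 had more in its intima (20600 against 12500 CPM). Of these 12 markers 9 were lower and 3 higher in the BT intima, with 3 at an unadjusted p below 0.05, all lower. In the BA 11 were lower and 1 higher in the intima, with 8 at an unadjusted p below 0.05, all lower. The part of either marker set in the layer differences of the collagen genes was not tested.

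The last comparison set the BT against the BA within a layer, with rabbit as a block, and no member was called. In the intima it was 0 of 37 by edgeR (0.011% of 9131 genes) and 0 by DESeq2, with 6 at an unadjusted p below 0.05 (16.2%, against 3.84%), all lower at the BT (2.05% of all genes were). These were PLOD2, COL5A2, COL12A1, COL15A1, COL8A1 and P3H2, each with q = 1. PLOD2 had the smallest p (log2 fold change -0.96, SE 0.28) and was lower at the BT in 4 of 4 rabbits, as was COL5A2 (-0.93, SE 0.29). COL5A2 was at 383, 345, 308 and 708 CPM in the BT intima of rabbits 3 to 6. Its BA intima values were 817, 591, 1050 and 753 CPM. Smooth muscle markers, 4 of 6 at an unadjusted p below 0.05, were also lower in the BT intima. Their sum, mostly ACTA2, was 10600 to 46600 CPM against 35000 to 74400 CPM in the BA intima, and their part was not tested.

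In the media it was 0 of 38 by edgeR (0.0227% of 8829 genes) and 0 by DESeq2, with 3 at an unadjusted p below 0.05 (7.89%, against 5.26%). P4HA2 was lower in the BT media, at 31.1, 53.7, 88.5 and 61.8 CPM against 79.8, 111, 120 and 122 CPM in the BA media of rabbits 3 to 6 (log2 fold change -0.96, SE 0.28, q = 0.556). COL3A1 was higher in the BT media of 4 of 4 rabbits (0.46, SE 0.18, q = 0.9) and LOXL2 in 3 of 4 (0.71, SE 0.29, q = 0.9).

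Genes that act beside the members were taken from a list of 59 (folding and export, propeptide proteases, receptors, degradation, fibril partners and inducers), of which 48 were in the table. In the BA media DCN, a small proteoglycan that binds collagen fibrils and also a fibroblast marker above, fell from 6990 and 4380 CPM to 1920 and 1510 CPM (log2 fold change -1.71, SE 0.30, q = 0.0487 in edgeR). Its ligated values lay under both sham values. The call was lost without any 1 rabbit (q from 0.182 to 0.615).

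In the BT media 2 of 42 were called, where 2.32% of all genes were, both higher in ligated rabbits. TIMP1, an inhibitor of the metalloproteinases that degrade collagen, rose from 1010 and 932 CPM to 14600 and 11600 CPM (3.77, SE 0.31, q = 0.000181). PPIB, the prolyl isomerase of the endoplasmic reticulum that helps collagen fold, rose from 270 and 350 CPM to 858 and 874 CPM (1.49, SE 0.30, q = 0.0273). TIMP1 was called without any 1 rabbit, while PPIB was lost without rabbit 5 (q = 0.114) or rabbit 6 (q = 0.217). Calls numbered 7 without rabbit 3 and 6 without rabbit 4, and 8 in DESeq2. In the intima no pathway gene was called by edgeR at either location. An unadjusted p below 0.05 was reached by 4 of 40 in the BA (5.91% of all genes) and 9 of 42 at the BT (11.6%). DESeq2 called 3 and 6. Leaving out rabbit 3 or rabbit 4 gave 3 edgeR calls in the BA intima, TIMP1 among them both times.

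The medial response of 4 of 43 pathway genes differed between locations by edgeR, where that of 0.491% of all genes did. TIMP1, higher in ligated rabbits at both locations, rose more at the BT (1.76, SE 0.27, q = 0.0012). The difference was also positive for DCN (1.61, SE 0.35, q = 0.0295) and LUM, a fibril proteoglycan like DCN (1.64, SE 0.37, q = 0.0391). Both were lower in the ligated BA media, while their flow groups overlapped at the BT. LUM was at 1710 and 610 CPM against 223 and 178 CPM in the BA media. In the BT media LUM was at 747 and 439 CPM against 274 and 446 CPM. The difference was negative for the matricellular gene CTGF (-1.08, SE 0.25, q = 0.0403). TIMP1 alone was called without each rabbit in turn. Without rabbit 6 it was the only call (q = 0.399 for DCN, 0.495 for LUM and 0.0555 for CTGF), without rabbit 3 DCN (q = 0.0918) and LUM (q = 0.139) were lost, and CTGF was lost without rabbit 4 (q = 0.191) or 5 (q = 0.103). Without the rabbit block none of the 4 was called, with q = 0.55 for TIMP1 and DCN and 0.718 for LUM and CTGF. Between layers of the BT 2 of 41 were called by edgeR, both lower in the intima, against 0.756% of all genes lower and 1.95% in either direction. They were the collagen-degrading protease CTSK (-1.30, SE 0.22, q = 0.0361) and the growth factor gene TGFB2 (-1.61, SE 0.28, q = 0.0372). Neither was called without rabbit 4 (q = 0.206 and 0.17), 5 (q = 0.0783 for both) or 6 (q = 0.14 and 0.156) or without the rabbit block (q = 0.215 and 0.234), and CTSK was lost without rabbit 3 (q = 0.053). DESeq2 called 14 pathway genes. In the BA no pathway gene was called between layers by edgeR, with 13 of 41 at an unadjusted p below 0.05 (12.3% of all genes), and DESeq2 called 9.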

How the data were processed

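Libraries were made from laser-microdissected basilar artery by SMART-Seq v4 amplification. Per the labels, the authors aligned reads to OryCun2.0 with STAR and counted them per gene with featureCounts 1.6.2 (submitters' processing notes). Raw counts per symbol are what the authors deposited. The entry without a symbol, 13.8 to 18.7% of the counts of a library, was left out. The count of pathway genes called in the BA media is not reported here. All 48 members were in the reference table of RefSeq symbols (assembly mOryCun1.1).

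Members were fixed by symbol, and members and lists were chosen with earlier results of these data known. All were named. Values of the libraries compared were given for those with q below 0.05 in a 2-group comparison. The same was done for the 2 with the smallest p below 0.05 in each direction. Genes outside the rule were chosen after their values were seen.

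Tests used edgeR 4.0.16 (TMM, quasi-likelihood F test in its legacy form, two-sided, Benjamini-Hochberg, q below 0.05) in R 4.3.3, on genes with a group mean above 1 CPM. Ligated and sham rabbits differ, so flow fits of 2 against 2 libraries had no block. Layer, location and interaction fits had rabbit as a block, since libraries with the same number came from the same animal. Replicates differed by 22.5 to 456 in chi-square per degree of freedom, so none was a duplicate. Alternatives were library size alone, RLE, DESeq2 1.42.0, all genes with a count, a fit per layer, no block, and leaving out each rabbit. In flow and interaction fits the last left 1 rabbit in a flow group, assumed to vary like the other group. Correlations used log2(CPM + 1), and figures matplotlib 3.10.9.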

Additional observations from a re-analysis of the deposited data

Results flagged for a closer look

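COL11A1 was singled out because its response to ligation in the media differed between the BT and the BA in a test of that difference (-2.50 on the log2 scale, SE 0.50, q = 0.0131 by edgeR's interaction test with rabbit as a block). The BA media was at 54.9 and 59.9 CPM in sham and at 123 and 185 CPM in ligated rabbits, and the BT media at 126 and 107 CPM against 41.8 and 71.4 CPM. The difference was called in 5 of the 7 alternatives tried, with log2 values from -2.67 to -2.21, and was lost without rabbit 6 (q = 0.13) and without the rabbit block (q = 0.411). In the same test 8 of the 12 measured fibroblast markers had positive and 4 negative differences. APOD (2.80, SE 0.28, q = 4.61e-06), DCN (1.61, SE 0.35, q = 0.0295) and LUM were called, in the direction opposite to COL11A1, and of the 7 at an unadjusted p below 0.05, 5 were positive and 2 negative. Of the 6 measured smooth muscle markers 5 were negative, and ACTA2 was called (-0.77, SE 0.18, q = 0.0491), in the direction of COL11A1. All 6 macrophage markers tested were positive, with 3 at an unadjusted p below 0.05. Their part in the result was not tested.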

How the results depend on the processing

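The counts of members called by edgeR rested on few rabbits. DESeq2 called more: 1 and 4 members for flow in the intima of the BA and the BT, 9 and 5 in their media, 13 and 18 between layers in the BA and at the BT, and 1 (intima) and 2 (media) for the location interaction, and 1 for the layer interaction at the BT. DESeq2 also called more genes in all. For flow they numbered 122 and 613 in the intima of the BA and the BT, and 508 and 594 in their media. Between layers they numbered 676 in the BA and 1020 at the BT. For the location interaction they numbered 64 (intima) and 156 (media), and for the layer interaction at the BT 111. Testing all genes with a count gave 3, 8 and 5 members for flow in the BT intima, BA media and BT media, and 4 between layers of the BA. Those fits called 346, 507, 557 and 151 genes in all. A fit over the layer gave 5 in the BA media, among 212 genes in all. The total of genes called also moved with the rabbit left out. Leaving out each rabbit gave 0 to 1 members for flow in the BA intima, 0 to 2 in the BT intima, 0 each time in the BA media, 0 to 6 in the BT media, 0 to 7 between layers at the BT, and 0 to 2 for the location interaction in either layer.

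Without the replicate block the count between layers at the BT was 0 in place of 8 and that of the medial interaction 0 in place of 1, and the block changed no other count. Flow could not be paired. The log2 fold changes of the named calls kept their sign in all 106 alternatives, of which 47 no longer passed the threshold. The cause of these losses was not tested. With 2 rabbits per group, and 3 counts worth up to 1.58 CPM in the shallowest library, changes in the low members were not detectable at this depth.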
